A study of Mus musculus with 4 samples.

Results

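The 9 sarcomeric myosin genes were read out in the chimeric eCLIP-seq libraries of overloaded mouse plantaris, namely the heavy chain genes Myh1, Myh2, Myh3, Myh4, Myh7 and Myh8 and the light chain genes Myl1, Myl2 and Mylpf. They were chosen by name, and every line of a library that overlapped the RefSeq span of 1 of these 9 genes on its strand was taken, for every miRNA, where a line is 1 peak with 1 miRNA. In the MOV control library 3539 of 93468 lines, in 154 of 20754 peaks, met this rule. In the MOV mimic library 4202 of 100897 lines, in 159 of 21872 peaks, did so. They are 9 of 35771 genes whose spans were read in the same way.

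Both libraries came from 5-month-old male C57BL/6J mice after 10 days of mechanical overload (MOV), a surgery that removes the synergists of the plantaris and loads it. At surgery the left muscle was given control lentiviral particles and the right muscle particles encoding a mimic of miR-1, both with a mouse CMV promoter and a TurboGFP reporter. No unloaded muscle was in either group, muscle tissue was homogenised without sorting cells, and whether muscles were pooled was not given in the sources used here. The 2 libraries analysed here are those of the immunoprecipitates among 4 in the series. Each group had 1 library, so there is no replicate error, no test between the groups and no p-value, and each difference below is a difference between these libraries. Chimeric eCLIP-seq precipitates Ago2, the carrier of miRNAs, after UV crosslinking and joins each miRNA to the RNA fragment held beside it, so that a chimeric read names both.

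Myosin is the motor of the thick filament. A molecule holds a pair of heavy chains, which carry the motor head, and light chains, which bind the neck of each head. Fibre types are named after the heavy chain they make: Myh4 marks IIb, Myh1 marks IIx and Myh2 marks IIa fibres, all fast, Myh7 marks slow fibres, and Myh3 (embryonic) and Myh8 (perinatal) mark developing and regenerating fibres. Myl1 and Mylpf are the essential and the regulatory light chain of fast fibres, and Myl2 is the regulatory light chain of slow and cardiac muscle. miR-1, miR-133 and miR-206 are miRNAs enriched in muscle.

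These 6 miRNAs are shown because each ranked high on at least 1 of the genes, or shares its seed with one that did. Mature sequences are from RefSeq (GRCm38.p6), 5′ to 3′, and capitals mark the seed, bases 2 to 8, which pairs with the target. miR-133a-3p, which named the most reads, miR-1a-3p and miR-378a-3p are given by name. miR-27a-3p and miR-27b-3p share 1 seed. Of the miRNAs shown, miR-133b-3p lies at chr1:20682834-20682855 and miR-206-3p at chr1:20679055-20679076, both on the plus strand. miR-22-3p lies at chr11:75463772-75463793 on the plus strand and miR-21a-5p at chr11:86584120-86584141 on the minus strand. miR-27a-3p lies at chr8:84208727-84208747 and miR-27b-3p at chr13:63300760-63300780, both on the plus strand.
miR-133b-3p: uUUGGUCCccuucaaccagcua
miR-206-3p: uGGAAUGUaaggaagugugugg
miR-27a-3p: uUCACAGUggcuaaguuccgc
miR-27b-3p: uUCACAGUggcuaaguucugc
miR-22-3p: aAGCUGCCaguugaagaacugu
miR-21a-5p: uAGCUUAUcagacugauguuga

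The heavy chains are close copies of each other, and a seed match in 1 of them is often found, or lost by 1 or 2 letters, at the same place of another. The coding sequence of Myh1 was identical to that of Myh2 at 91.1% of the aligned bases, to Myh4 at 90.2%, to Myh8 at 89.3%, to Myh3 at 80.3% and to Myh7 at 77.4%. Of all windows of 30 nt in the coding sequence, 42.3% in Myh1, 41.0% in Myh2, 35.2% in Myh8, 34.9% in Myh7, 32.2% in Myh4 and 11.6% in Myh3 also occurred in another heavy chain. For Myh7 the other chain was nearly always Myh6, the cardiac heavy chain, which had 0 reads in both libraries. How reads that match several heavy chains were placed was not given in the sources used here, and so the split of reads among the heavy chains is less certain than their sum. The light chains share no such window with each other. Of the lines with at least 3 reads and a fractional value (385 control and 487 mimic lines), 0 had the same value and miRNA in another of the 9 genes. Shared reads placed on 1 gene only, or summed with other reads of a peak, would also give 0. The count therefore does not show how shared reads were placed.

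The windows below show this for GGACCAA, the 7 letters that pair with the seed of miR-133b-3p. They are 25 nt of coding sequence, sense strand, from the longest GENCODE vM1 transcript of each gene (built on mm9), and the number is the first base of the match or of its counterpart in that transcript. Capitals mark a full match. Myh8 is shown only at the place where it matched. Myh3 and Myh7 matched at none of these places and are not shown. Only the transcript strand was searched.
Myh1 at 806: gcaggggacgctggaGGACCAAatc
Myh2 at 785: gcaggggacgctggaGGACCAAatc
Myh4 at 750: gcaggggacccttgaagatcaaatt
Myh1 at 3926: gtgccgcacactggaGGACCAAgtg
Myh2 at 3905: gtgccgcaccctggaggaccaggtg
Myh4 at 3861: gtgccgcaccctggaGGACCAActg
Myh1 at 4468: tgattgatgtggagaGGACCAAcgc
Myh2 at 4447: tgctggatgtggagaGGACCAAcgc
Myh8 at 4494: tgattgatgtggagaGGACCAAcgc
Myh4 at 4403: tgattgacgtggagaggtctaacgc
Counted over whole transcripts, GGACCAA occurred 3 times in Myh1 and Myh2, 2 times in Myh8, and 1 time in Myh4, Myh3 and Myh7, always in coding sequence. It did not occur in Myl1, Mylpf or Myl2. Among 2145 other transcripts within 20% of the length of Myh1, 33.9% held it at least 1 time, with a mean of 0.445 matches. The peaks could not be placed on these transcripts, since the peaks are in GRCm38 and the transcripts in mm9.

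The myosin genes held a large part of all chimeric reads. Their reads summed to 15703 in the control, which was 6.76% of the library (95% exact Clopper-Pearson interval 6.65 to 6.86%), and to 20203 in the mimic, 7.79% (7.69 to 7.90%). All chimeric reads numbered 232408 in the control against 259207 in the mimic, a ratio of mimic to control of 1.12 (1.11 to 1.12). On the 9 genes this ratio was 1.29 (95% exact conditional binomial interval 1.26 to 1.31) and outside them it was 1.103. Intervals for reads, shares and ratios cover counting error only. Since the input libraries were not analysed here, the amount of a transcript and its occupancy by Ago2 cannot be told apart, and neither can fewer fibres of a type and less RNA per fibre.

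The direction of that sum rested on Myh1. Without Myh1 the other 8 genes had 9323 control reads and 8845 mimic reads, a ratio of 0.949 (0.921 to 0.977), which lay below 1 and below the ratio of all reads. The 6 heavy chains had a ratio of 1.29 (1.26 to 1.32) and the 3 light chains a ratio of 1.28 (1.195 to 1.38). The summed reads of Myh1, Myh2 and Myh4, which do not depend on how reads were split among these 3 genes, numbered 13752 and 18098, a ratio of 1.32 (1.29 to 1.35).

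**Figure D1:**
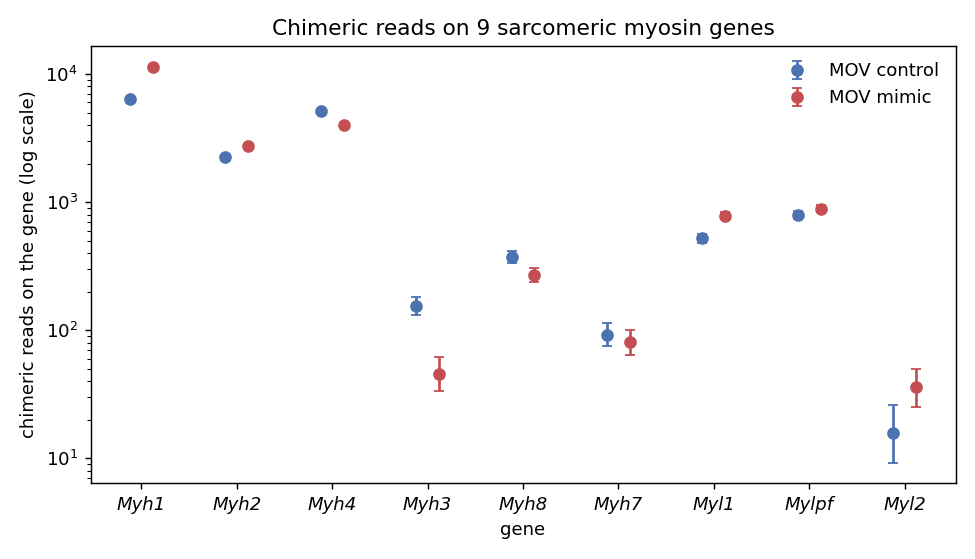
Chimeric reads on each myosin gene (y axis, log scale) in the MOV control library (blue) and the MOV mimic library (red). Bars are 95% exact Poisson intervals, which cover counting error only. The libraries stand farthest apart at Myh3, with 155 and 45.6 reads. Myh1 is higher in the mimic and Myh4 lower.

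Among the adult fast heavy chains, Myh1 had more and Myh4 had fewer reads in the mimic. Myh1 (IIx; chr11:67200102-67224577, plus strand) had 6379.6 control reads (95% Poisson interval 6224 to 6539) and 11358.5 mimic reads (11151 to 11569.8). Its ratio was 1.78 (1.73 to 1.84), and it went from the fourth to the second place among all genes by reads. Divided by library totals the ratio was 1.60, the highest of the 40 genes with at least 1000 reads.

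Myh4 (IIb; chr11:67237812-67260447, plus strand) had 5139.8 control reads (5000.4 to 5282) and 4015 mimic reads (3892 to 4141). The ratio was 0.781 (0.749 to 0.814), or 0.700 per library total, which was place 39 of those 40 genes. Its intervals in the control and the mimic did not overlap. In the control Myh1 had 40.6% and Myh4 32.7% of all reads on the 9 genes, and in the mimic they had 56.2% and 19.9%.

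Myh2 (IIa; chr11:67171027-67197517, plus strand) stood between them. It had 2233 control reads (2141 to 2328) and 2725 mimic reads (2624 to 2829), a ratio of 1.22 (1.15 to 1.29) and of 1.09 per library total. Per kilobase of the longest transcript, Myh1 had 1049 control reads and 1868 mimic reads, Myh4 had 854 and 667, and Myh2 had 367 and 448. The order of these levels was the same in both libraries.

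The developmental heavy chains had fewer reads in the mimic. Myh3 (embryonic; chr11:67078273-67102291, plus strand) had 155 control reads (132 to 181) and 45.6 mimic reads (33.7 to 61.4). Its ratio was 0.295 (0.209 to 0.415), and 2707 of the 2728 genes with at least 20 reads over both libraries had a higher ratio. Over its sites with a peak in both libraries the ratio of Myh3 was 0.600 (0.410 to 0.884), since 78.7 of its control reads lay at sites with no mimic peak. Myh8 (perinatal; chr11:67277124-67308634, plus strand) had 373 control reads (336 to 413) and 269.7 mimic reads (239 to 304), a ratio of 0.723 (0.617 to 0.849). The sum of both was 527 in the control against 315 in the mimic, with a ratio of 0.598 (0.518 to 0.689). Markers of regenerating or developing fibres (Myog, Myod1, Ncam1, Chrna1 and Actc1) were read beside them: all 5 had reads in both libraries, 2 had at least 20. The list summed to 150.3 control reads and 212 mimic reads, a ratio of 1.41 (1.14 to 1.75). The higher sum rested mainly on Actc1, with 108 control reads and 166 mimic reads. Ncam1 had 23.9 and 23.3, Myog 6.76 and 6.78, Chrna1 7.86 and 11.1, and Myod1 3.64 and 4.62.

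The slow heavy chain Myh7 (chr14:54970684-54994626, minus strand) had 92.6 control reads (75.1 to 114) and 80.7 mimic reads (64.3 to 101). The ratio of 0.872 (0.638 to 1.19) held both 1 and the ratio of all reads in its interval. Slow fibre markers (Tnnt1, Tnni1, Tnnc1, Atp2a2 and Myoz2) had 106 and 112 reads in sum. Per kilobase Myh7 had 14.9 and 13.0 reads, the lowest level of the 9 genes in the control. The Mir208b gene lies within Myh7 on its strand, and no read of miR-208b-3p was listed on any of the 9 genes.

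Light chains of fast fibres carried far more reads than the slow one. Myl1 (chr1:66924295-66947932, minus strand) had 521 control reads (477 to 568) and 786 mimic reads (732 to 843), a ratio of 1.51 (1.35 to 1.69). Mylpf (chr7:127208848-127214288, plus strand) had 794 (739.7 to 851) and 888 (831 to 948), a ratio of 1.12 (1.02 to 1.23) that equalled that of all reads. Myl2 (chr5:122092724-122113473, plus strand) had 15.9 control reads (9.15 to 26.0) and 36.3 mimic reads (25.2 to 49.8), a ratio of 2.29 (1.22 to 4.34) from few reads, and of 4.07 without its main control site. Per kilobase, Mylpf with 1036 and 1159 reads stood at the level of Myh1 in the control. The transcripts used for this scale have 766 nt for Mylpf and 6081 nt for Myh1.

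The ratios of the myosins were then read against those of all genes. A gene was called where its reads, divided by library totals, differed by at least 1.5 times, among genes with at least 20 reads over both libraries. By this rule 2 of the 9 myosins were called higher in the mimic (Myh1 and Myl2) beside 13.2% of the 2728 genes, and 2 were called lower (Myh3 and Myh8) beside 17.7%. On reads not divided by library totals, Myl1 was called higher too and Myh8 was no longer called, beside 18.9% of all genes higher and 12.6% lower. All 9 passed the minimum of 20 reads. Per library total, the ratios of all genes with at least 20 reads ran from 0.451 at the 5th to 1.996 at the 95th percentile, and those of the 40 genes with at least 1000 reads from 0.705 to 1.47. Myh1 lay above the 5th to 95th percentile range of the 40 well-read genes and Myh4, at 0.700, just below it. Both are among these 40 genes, so this restates their places, 1 and 39. Myh3 lay below the wider range. At a fold of 2 only Myl2 was called higher, beside 5.02% of all genes, and only Myh3 lower, beside 6.96%.

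**Figure D2:**
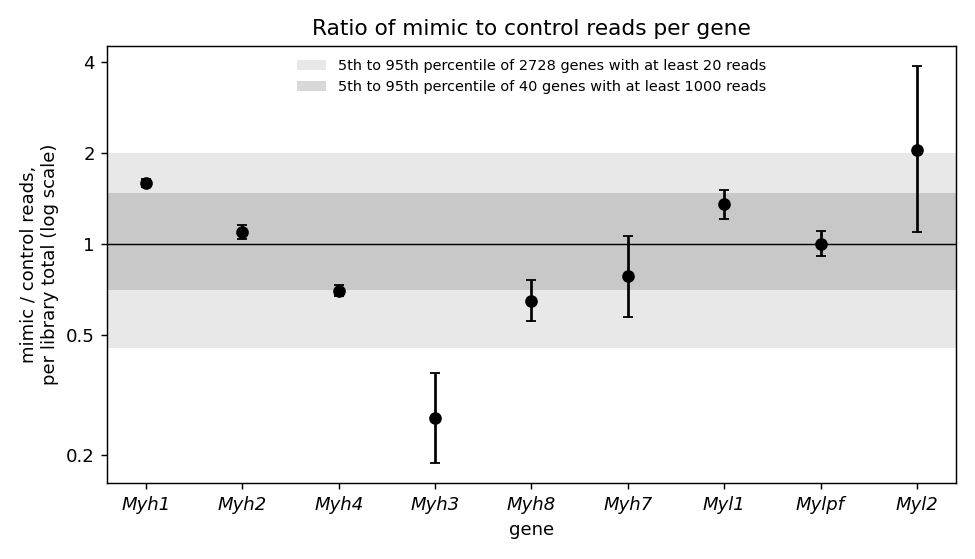
Ratio of mimic to control reads of each myosin gene, each divided by its library total (y axis, log scale). Points are the ratios and bars their 95% exact conditional binomial intervals, which cover counting error only. The light and dark bands are the 5th to 95th percentile of the 2728 genes with at least 20 reads and of the 40 genes with at least 1000 reads. Myh1 at 1.60 lies above the dark band and Myh3 at 0.264 below the light band.

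Other genes of the thick filament were read from a list of 21. The list holds myosin binding proteins, M-band proteins, further myosin chains, myosin chaperones and the myosin light chain kinases Mylk2 and Mylk4. Among its chains is also Myh14, a non-muscle heavy chain, with 7.82 and 0.455 reads. It summed to 1805 control reads and 2220.3 mimic reads, a ratio of 1.23 (1.16 to 1.31). Of the 14 with at least 20 reads, 1 was called higher and 4 lower, beside 13.2% and 17.7% of all genes, and their median ratio per library total was 0.869 beside 0.949 over all genes. Mybpc1, the slow myosin binding protein C, had the most reads with 529.7 and 756. Myh13, the extraocular heavy chain of the same gene cluster, had 32.9 and 30.9. Non-muscle and smooth muscle myosins (8 genes) had 334 and 299.6 reads in sum, of which Myh9, a non-muscle heavy chain, held 198 and 129.

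Markers of the cells in a whole muscle were set beside these values. Fast fibre markers (8 of 8 with reads) summed to 7394 in the control against 8706 in the mimic, a ratio of 1.18 (1.14 to 1.21). Single markers went both ways. By the rule above 1 of the 8 was called higher and 1 lower, beside 13.2% and 17.7% of all genes. These were Actn3 with a ratio of 1.72 (1.52 to 1.97) and Tnnc2 with 0.730 (0.612 to 0.875). Of the cardiac markers, Myh6, Nppa, Tnni3 and Ryr2 were at 0 in both libraries. Fibroblast markers (5 of 5) had 6273 and 5879 reads with a ratio of 0.937 (0.904 to 0.971), immune markers 70.3 and 108 (3 with reads of 4 with a span), and smooth muscle markers 112 and 142 (3 of 4). Endothelial markers had 20.5 and 39.1 reads, from 2 control and 3 mimic markers of 4. The part of these cells in the myosin ratios was not tested.

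miR-133a-3p was the miRNA that named the most reads on the 9 genes. It named 7091 of their control reads, or 45.2% (44.4 to 45.9%). In the mimic it named 9571, or 47.4% (46.7 to 48.1%). In the rest of the library it named 16.5% and 17.9% of the reads, and without the mitochondrial chromosome and the ribosomal RNA gene Rn18s-rs5 18.8% and 20.4%. miR-133b-3p added 13.9% and 13.4% on the 9 genes against 4.55% and 4.20% in the rest. Of all reads of miR-133a-3p, 16.6% and 18.3% lay on these 9 genes.

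The let-7 family went the other way, with 1.82% of the reads on the 9 genes and 13.1% of the rest in the control. In the mimic it had 2.21% and 12.1%. Without the mitochondrial chromosome and Rn18s-rs5, let-7 had 9.65% and 9.27% of the rest. miR-1a-3p had 7.12% and 6.21% of the myosin reads, against 12.1% and 14.5% of the rest, or 9.78% and 11.7% without the mitochondrial chromosome and Rn18s-rs5.

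The share of miR-133a-3p was not alike among the genes. It was 52.3% in Myh1, 54.2% in Myh2, 42.5% in Myh4, 32.4% in Myh3, 31.5% in Myh8, 32.1% in Myh7, 13.5% in Myl1, 10.7% in Mylpf and 35.6% in Myl2 in the control. In the mimic the same order of genes gave 53.0%, 57.8%, 37.8%, 33.6%, 45.0%, 42.0%, 18.4%, 13.8% and 55.9%. Among the 181 genes with at least 100 reads in the control, the median share was 15.4%, and 10 genes had a higher share than Myh2 and 13 a higher share than Myh1. The 5 heavy chains with enough reads lay above this median and both fast light chains below it. In the mimic, where the median was 16.3%, Myl1 lay above it too.

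**Figure D3:**
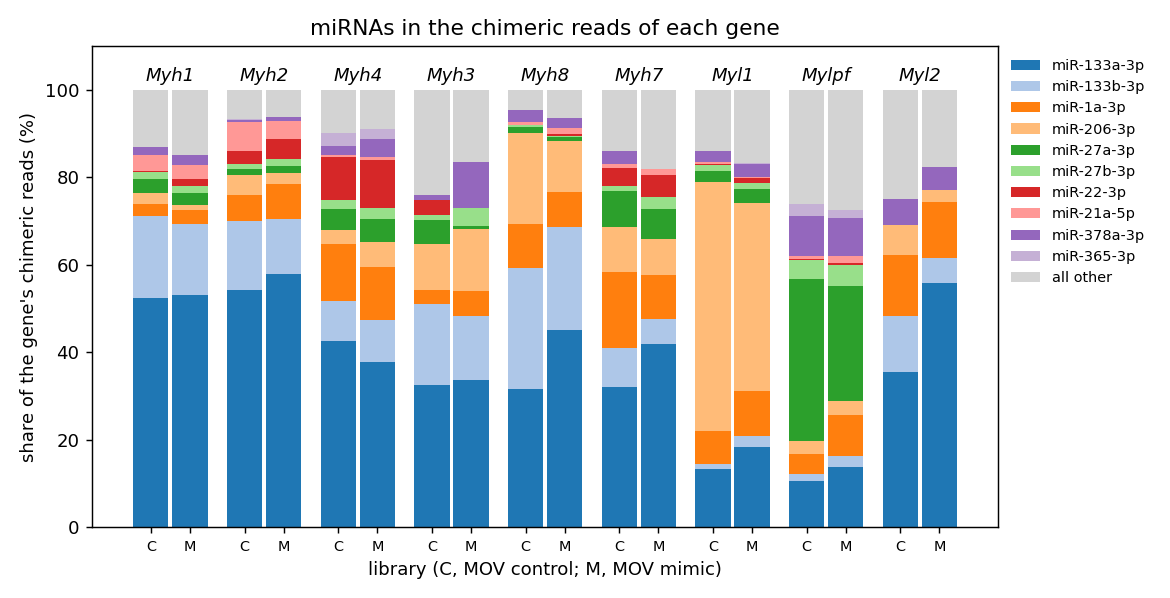
Share of the chimeric reads of each gene (y axis, %) named by each miRNA, in the MOV control (C) and the MOV mimic (M) library. Each stack is 1 gene in 1 library, and grey is the sum of all other miRNAs. miR-133a-3p and miR-133b-3p together fill most of Myh1 and Myh2, whereas miR-206-3p has 57.0% and 42.9% of Myl1, and miR-27a-3p has 37.0% and 26.4% of Mylpf.

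Myh1 and Myh2 were alike in their leading miRNAs. In Myh1, miR-133a-3p had 3339.7 control reads and 6020.2 mimic reads, miR-133b-3p 1198 and 1865, miR-21a-5p 233 and 362, miR-27a-3p 201 and 313, and miR-1a-3p 178 and 345. In Myh2 miR-133a-3p had 1209 and 1575, miR-133b-3p 356 and 345, miR-21a-5p 150.1 and 117, miR-1a-3p 129.8 and 216, and miR-22-3p 66.3 and 122. The cosine of their miRNA shares, which is 1 for the same make-up, was 0.992 in the control against 0.991 in the mimic.

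Myh4 had a larger share of miRNAs other than miR-133a-3p than Myh1 and Myh2 had. miR-133a-3p had 2184 control reads and 1518 mimic reads, miR-1a-3p 675 and 490.2, miR-22-3p 508 and 436, miR-133b-3p 469 and 381, and miR-27a-3p 238 and 218. miR-22-3p took 9.88% and 10.9% of its reads, and 5 of 181 genes in the control and 8 of 200 in the mimic had a higher share of it. The gene had 169 and 225 reads of miR-206-3p, the 1 miRNA among its 6 most frequent in the control with more reads in the mimic.

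In the developmental chains, miR-133a-3p and miR-133b-3p led as well. Myh3 had 50.2 and 15.3 reads of miR-133a-3p, 28.9 and 6.70 of miR-133b-3p, and 16.5 and 0 of miR-26a-5p. Myh8 had 118 and 121 reads of miR-133a-3p, and 103 and 63.7 of miR-133b-3p. For miR-206-3p, which is made in regenerating muscle, Myh8 had 77.0 control reads and 31.4 mimic reads, 20.6% and 11.7% of the gene. On Myh8 miR-133a-3p had a ratio of 1.03 (0.789 to 1.33), while its other 4 leading miRNAs of the control had fewer reads in the mimic.

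Myh3 further had 8.55 and 0.358 reads of miR-27a-3p, 4.89 and 2.59 of miR-1a-3p, and 1.88 and 4.81 of miR-378a-3p. Myh8 had 9.80 and 6.47 of miR-378a-3p.

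In Myh7, miR-133a-3p had 29.7 and 33.9 reads, miR-1a-3p 15.9 and 8.13, miR-206-3p 9.67 and 6.60, miR-27a-3p 7.61 and 5.67 and miR-133b-3p 8.31 and 4.50. miR-499-5p, which is made from the intron of another myosin gene, Myh7b, was listed with 0.37 reads on the 9 genes in the control against 1.76 in the mimic. These numbers are too small to compare.

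In Myl1 and Mylpf other miRNAs led than miR-133a-3p, the leading miRNA of the heavy chains and of Myl2. Myl1 was led by miR-206-3p, with 297 control reads and 337 mimic reads, and only 2 of 181 genes in the control and 2 of 200 in the mimic had a higher share of it. miR-133a-3p followed with 70.1 and 145 reads, a ratio of 2.06 (1.55 to 2.80), and miR-1a-3p with 39.1 and 81.5, a ratio of 2.08 (1.42 to 3.16). miR-206-3p on Myl1 had a ratio of 1.14 (0.968 to 1.33), so its share of the gene went from 57.0% to 42.9%. The remaining named miRNAs of Myl1 were miR-27a-3p with 13.0 and 24.3 reads, miR-378a-3p with 13.6 and 23.5, and miR-133b-3p with 5.39 and 18.9.

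Mylpf was led by miR-27a-3p, with 294 control reads and 235 mimic reads. No other of the 181 genes had a higher share of miR-27a-3p in the control, and 1 of 200 had in the mimic. It was followed by miR-133a-3p with 84.9 and 123 reads, miR-378a-3p with 72.9 and 77.2, and miR-23a-3p with 42.4 and 52.0. miR-1a-3p had 35.4 control reads and 84.6 mimic reads, a ratio of 2.39 (1.62 to 3.71). Myl2 had 5.65 and 20.3 reads of miR-133a-3p and under 5 of any other miRNA in either library.

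miR-1 is what the mimic supplies. The study's methods also name a step that amplified cDNA with a miR-1 primer, and whether these libraries passed it was not clear. Reads of miR-1a-3p on all 9 genes were 1118 in the control against 1254 in the mimic, a ratio of 1.12 (1.03 to 1.22), which equalled that of all chimeric reads. Outside the 9 genes its ratio was 1.32 (1.30 to 1.34), and these intervals did not overlap. The sum hides opposite values of single genes. On the light chains miR-1a-3p had 76.7 and 171 reads, a ratio of 2.23 (1.69 to 2.95). There the ratio was 1.79 for miR-133a-3p, 2.19 for miR-133b-3p, 1.14 for miR-206-3p and 1.28 for all reads. Pooled with miR-206-3p, the light chain ratio of miR-1a-3p was 1.35 (1.18 to 1.54). On the heavy chains miR-1a-3p had 1042 and 1083 reads, a ratio of 1.04 (0.954 to 1.13). Within the heavy chains the ratio of miR-1a-3p was 1.93 (1.61 to 2.34) on Myh1 and 1.66 (1.33 to 2.08) on Myh2. On Myh4, which held most of these reads in the control, it was 0.726 (0.645 to 0.817). All reads of Myh1, Myh2 and Myh4 had ratios of 1.78, 1.22 and 0.781. The miR-1a-3p values on Myh1 and Myh4 thus largely restate those of the gene.

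Pairs of 1 miRNA and 1 gene were read by the same rule, and those called higher lay mostly on Myh1. With at least 20 reads over both libraries, 95 pairs lay on the 9 genes, and 37 were called higher in the mimic beside 16.9% of all 2087 pairs, and 21 lower beside 17.5%. Of the 37 pairs on Myh1, 25 were called higher and 2 lower. Of the 19 on Myh4, 0 were called higher and 9 lower. Myl1 had 6 of 7 called higher, Myh3 3 of 3 lower and Myh8 3 of 4 lower. The pairs of a gene are parts of its reads, so these counts largely restate the ratio of the gene. Per library total that ratio was 1.60 on Myh1, 0.700 on Myh4 and 1.35 on Myl1.

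Among the 59 pairs with at least 50 reads, the highest ratios were on Myh1: miR-22-3p with 20.2 and 181 reads (8.96, 5.69 to 15.2), miR-23b-3p with 12.9 and 42.1 (3.26, 1.70 to 6.56), and miR-26a-5p with 44.6 and 131 (2.95, 2.06 to 4.18). Over all genes these 3 miRNAs had ratios of 1.19, 1.104 and 1.13. The lowest ratios were miR-133a-3p on Myh3 with 0.305 (0.156 to 0.543), miR-206-3p on Myh8 with 0.409 (0.256 to 0.618) and miR-1a-3p on Myh8 with 0.572 (0.326 to 1.004).

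Peaks of both libraries were then merged into sites where they overlapped or touched. The 9 genes had 145 sites, of which 93 had a peak in both libraries, 26 in the control only and 26 in the mimic only. Sites of 1 library were mostly small and held 422 control reads and 655 mimic reads. A file lists reads in its own peaks only, so a site without a peak may still have had reads. At the 68 sites with at least 20 reads and a peak in both libraries, miR-133a-3p was the leading miRNA of 35 by control reads and of 37 by mimic reads, and the leading miRNA was the same in both libraries at 59.

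The higher reads of Myh1 in the mimic were spread over its length. Of its 19 sites with at least 20 reads and a peak in both libraries, 18 had a ratio above that of all reads, and at 16 the interval lay above it. Another 5 had no control peak, so their side was fixed by the peaks called. Its highest peak lay in the site at chr11:67210376-67210461, which had 1289 control reads and 1951 mimic reads, with miR-133a-3p at 46.6% and 49.8% of them. The merged site with the most reads, at chr11:67219179-67219359, had 1365 and 2223.5, and the one at chr11:67215841-67215938 had 594 and 1194. Without the site of most reads the ratio of the gene was 1.82, and over sites with a peak in both libraries it was 1.71 (1.65 to 1.76). Sites are parts of the reads of a gene, so counts of sites here and below largely restate its ratio.

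Some Myh1 sites, picked after their values were seen, differed far more than the gene. At chr11:67217497-67217567 there were 42.6 reads in the control, led by miR-1a-3p, and 345 in the mimic, led by miR-22-3p, a ratio of 8.09 (5.83 to 11.3). At chr11:67204409-67204451 there were 34.0 and 201 reads, led by miR-133a-3p in both. A site at chr11:67205531-67205576 had no peak in the control and 215 reads in the mimic, with miR-30c-5p in the lead at 17.3%.

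Myh4 showed the opposite. Of its 15 sites with at least 20 reads and a peak in both libraries, 12 had a ratio below that of all reads, and at 8 the interval lay below it. Another 3 had no mimic peak. The values were not even along the gene. At chr11:67256202-67256278 there were 337 control reads and 122 mimic reads (ratio 0.362, 0.292 to 0.447), and at chr11:67248595-67248721 there were 781 and 449.5 (0.576, 0.512 to 0.648), both led by miR-133a-3p. A miR-133a-3p site at chr11:67251710-67251761 had 181 reads in the control and no peak in the mimic.

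Other large Myh4 sites had about the same reads in both libraries. The site at chr11:67254000-67254101, led by miR-133a-3p, had 686 and 733 reads (1.07, 0.962 to 1.19), the miR-22-3p site at chr11:67254486-67254577 had 451 and 485, and the miR-1a-3p site at chr11:67243232-67243321 had 456 and 465. Over sites with a peak in both libraries the ratio of Myh4 was 0.824 (0.790 to 0.860). A site at chr11:67258670-67258705, led by miR-378a-3p, went against the gene with 35.7 and 90.0 reads (2.52, 1.68 to 3.79).

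**Figure D4:**
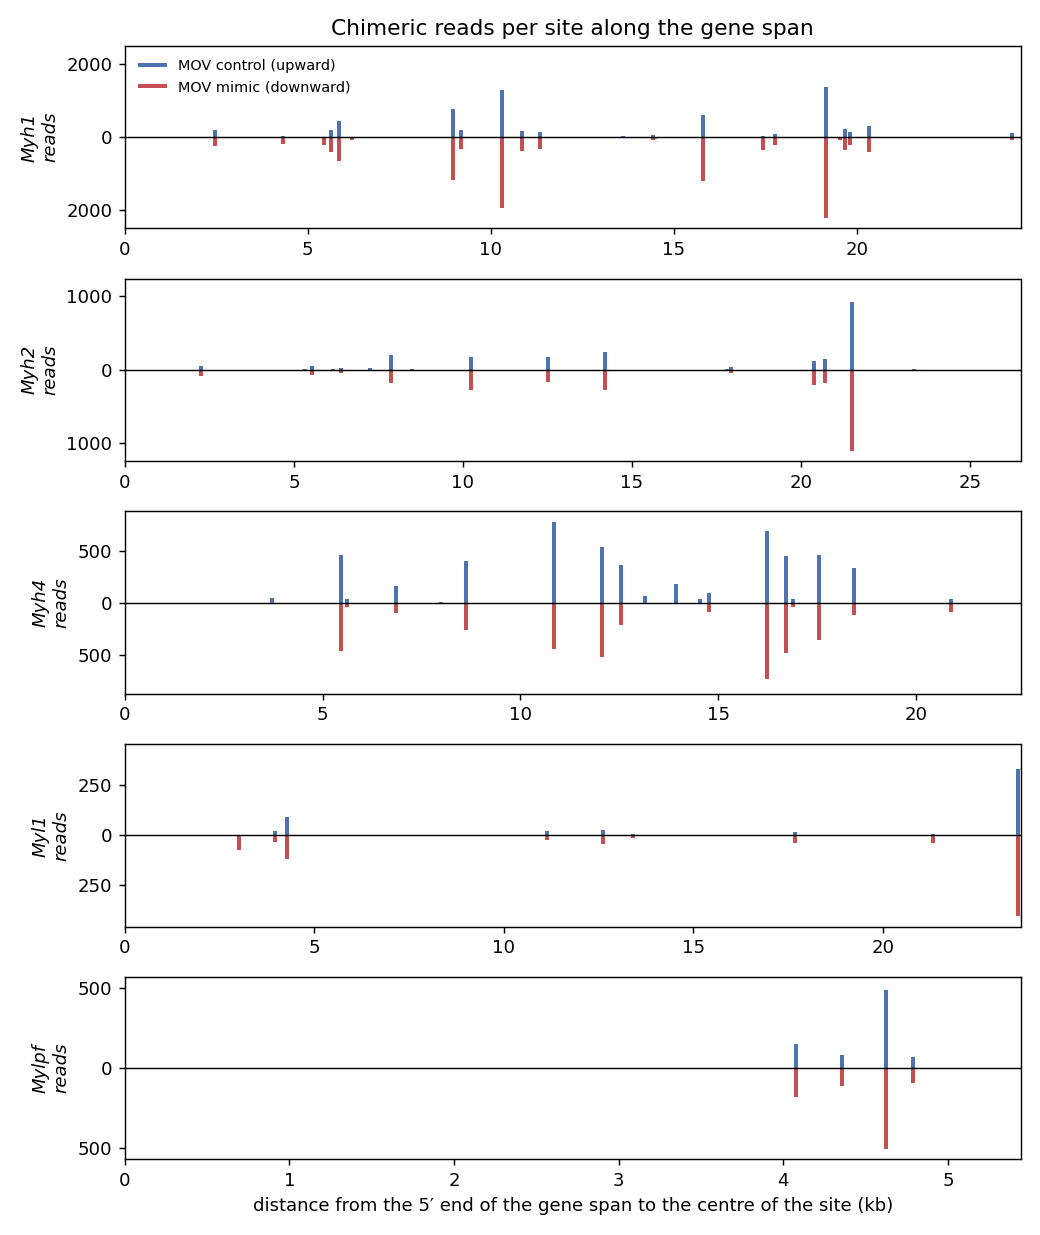
Chimeric reads per site (y axis) along the gene span of Myh1, Myh2, Myh4, Myl1 and Mylpf, by distance from the 5′ end (x axis, kb). Bars go up for the MOV control and down for the MOV mimic. The main sites stand at the same places in both libraries, spread over Myh4, and near the 3′ end of the span in Myl1 and Mylpf.

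A large part of the Myh2 reads lay at 1 site. The site at chr11:67192460-67192586 had 922 control reads and 1102 mimic reads, 41.3% and 40.4% of the gene, with miR-133a-3p at 74.5% and 79.9%. The next sites were at chr11:67185171-67185268 with 238 and 271 reads, led by miR-1a-3p, at chr11:67181217-67181343 with 173 and 274, led by miR-133a-3p, and at chr11:67178858-67178936 with 204 and 180.4 reads, led by miR-21a-5p at 68.7% and 58.6%. Of the 14 Myh2 sites with at least 20 reads, 9 lay above and 5 below the ratio of all reads.

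In the developmental and slow chains the reads were few per site. Myh8 had its highest control site at chr11:67292179-67292270 with 166 and 80.2 reads, led by miR-206-3p, a ratio of 0.482 (0.364 to 0.633). Its site at chr11:67301447-67301583, led by miR-133a-3p, had 133 and 122 reads, a ratio of 0.918. Without the former, which had the most control reads, the ratio of Myh8 was 0.918 (0.750 to 1.12). All 4 Myh8 sites with at least 20 reads had a ratio below that of all reads, but only 1 of them with its interval.

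Myh3 had its highest control peak at chr11:67097958-67098039 with 24.8 reads, led by miR-26a-5p, and no peak there in the mimic. At chr11:67090971-67091056 it had 21.6 and 5.05 reads, and at chr11:67096290-67096371 and chr11:67086341-67086399, its highest peaks in the mimic, 3.15 and 12.0 and then 6.91 and 8.12. Of its 18 sites 10 had a peak in the control only and 0 in the mimic only. Myh7 had its highest site at chr14:54986458-54986537 with 15.1 and 18.9 reads, followed by chr14:54984693-54984768 with 14.4 and 1.72 and chr14:54989256-54989329 with no peak in the control and 9.81 reads in the mimic.

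The fast light chains had their main site towards the 3′ end of the span. In Myl1 it lay at chr1:66924309-66924427 with 329 control reads and 405 mimic reads, 63.2% and 51.6% of the gene, with miR-206-3p at 65.6% and 56.8%. The next one, at chr1:66943584-66943743, had 89.7 and 118 reads and was also led by miR-206-3p. All 8 Myl1 sites with at least 20 reads and a peak in both libraries had a ratio above that of all reads, 2 of them with their interval.

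All Mylpf reads lay at 4 sites, which start 4049 to 4762 nt from the 5′ end of a span of 5441 nt. The main one, at chr7:127213418-127213520, had 490.3 and 506 reads, led by miR-27a-3p at 58.0% and 42.5%. The site at chr7:127212897-127212953 had 147 and 180.2 reads and was led by miR-378a-3p. In Myl2 the sites at chr5:122103831-122103936 and chr5:122106674-122106776 had 8.96 and 8.21, and 5.94 and 16.3 reads.

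Neither the letters ACATTCC, which pair with the seed of miR-206-3p, nor ACTGTGA, which pair with the seed of miR-27a-3p and miR-27b-3p, were found in the transcripts of Myl1 and Mylpf. Of other transcripts within 20% of their length, 8.99% and 6.79% held ACATTCC, and 14.6% and 8.65% held ACTGTGA, on the transcript strand. In the heavy chains ACTGTGA occurred 1 to 3 times in each, and ACATTCC in none of the 6.

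**Figure D5:**
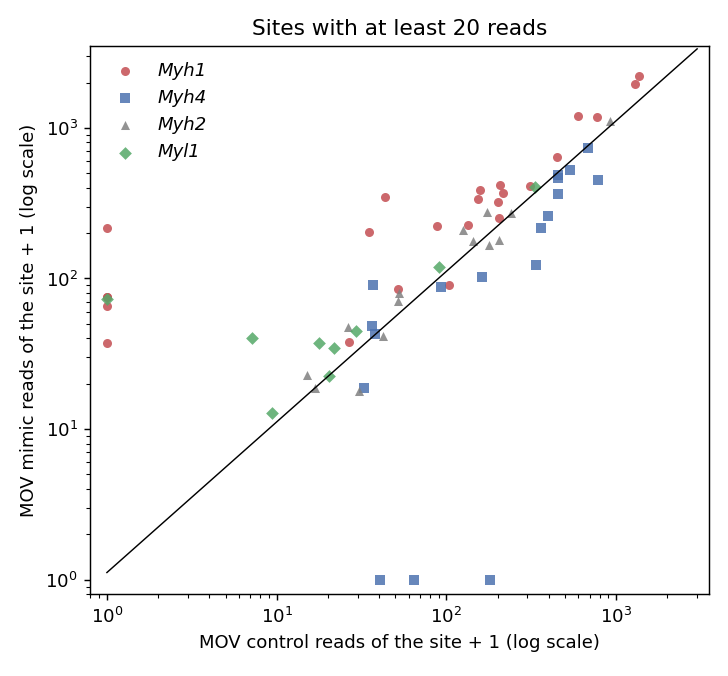
Reads of each site in the MOV control (x axis) and the MOV mimic (y axis), both as reads plus 1 on a log scale, for the sites of Myh1, Myh4, Myh2 and Myl1 with at least 20 reads over both libraries. The line is the ratio of all chimeric reads, 1.12. Sites without a peak in a library lie on the edges, where the peaks called fix their side. Of the sites with a peak in both libraries, 18 of 19 in Myh1 lie above the line and 12 of 15 in Myh4 below it.

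The genes most like each myosin in their miRNA make-up were found by the cosine of miRNA shares, among 181 (control) and 200 (mimic) genes with at least 100 reads. Genes of 1 library share its depth and its miRNAs, so the values are a description. Myh1 was most like Cmss1 (0.995), Tpi1 and Tpm1 in the control and Hspa9 (0.997), Cmss1 and Tpi1 in the mimic, beside a median of 0.544 and 0.562 over the genes compared. Myh2 was most like Tpm1 in both libraries, with 0.993 and 0.994. Myh4 was most like Pygm (0.979) and Flnc (0.975), and the titin gene Ttn ranked second in both libraries with 0.966 and 0.964.

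Myl1 had the same 3 genes in both libraries, Fn1 with 0.972 and 0.920, Tpm4 and Hspb7. Myh8 was most like Jun, with 0.922 and 0.978, and Myh3 in the control most like Ttn with 0.947. For Mylpf the likest genes were Runx1 with 0.801 in the control and Srl with 0.888 in the mimic, the lowest of these values, and no gene was named in both libraries. The cosine of a gene with itself between the libraries ran from 0.909 for Myh3 to 0.998 for Myh1, and that of Myh3 was below its cosine with Ttn in the control.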

How the data were processed

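Chimeric eCLIP-seq of plantaris was measured in 1 library per group. Per the labels and the study's methods, the authors crosslinked the tissue with UV light, precipitated Ago2, ligated miRNAs to targets, trimmed adapters, filtered repeats, aligned with STAR, removed PCR duplicates and called peaks with CLIPper. The methods also name a miRNA-specific step, in which a miR-1 primer served to amplify cDNA. Whether it was applied to the libraries read here, which list 560 miRNAs each, was not clear from the sources used. Its effect on the miRNA shares was not tested. The submitters' processing notes name UMI-tools 1.1.1, cutadapt 3.2, STAR 2.7.7a, Bowtie 1.2.3, HOMER 4.11 and mm10. The methods name mm9, and coordinates were read as mm10 (GRCm38). The values are estimated counts, deposited by the authors as chimeric reads of 1 miRNA in 1 peak. How fractions arose, and how reads matching several paralogs were placed, was not given in the sources used here. On the 9 genes 74.3% of lines in the control and 72.3% in the mimic were under 1 read, with 3.95% and 3.70% of the reads. Peaks are those of each library, so reads outside them are not listed. Input libraries were not analysed here.

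Lines were assigned to 35771 of 49993 RefSeq GRCm38.p6 spans by at least 1 shared nucleotide on the gene's strand (27024 strands from RefSeq promoters, 8747 from GENCODE vM1 by name). No reads were listed on the opposite strand of the 9 genes. Per-kilobase values use the longest GENCODE vM1 transcript. Intervals are exact at 95% (Poisson for reads, Clopper-Pearson for shares, conditional binomial for ratios), on reads rounded to whole numbers. A call needed 20 reads and a fold of 1.5 after division by library totals. Named were, per gene and library, the 5 leading miRNAs and 2 highest peaks, with muscle miRNAs in addition. So were the 3 highest and 3 lowest ratios among pairs with at least 50 reads, and the 3 most alike genes outside the 9. Sites named beyond these were picked after their values were seen. Members and lists were chosen with earlier results of these data known. Alternatives covered line minimums, scaling, overlap, pooled miRNAs, omitted sites and genes, and thresholds. Python 3.11.15, numpy 2.4.6, pandas 2.3.3, scipy 1.17.1, biopython 1.88 and matplotlib 3.10.9 were used, and the code was tested on simulated data.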

Additional observations from a re-analysis of the deposited data

How the results depend on the processing

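No paired analysis was possible because there was only 1 library in a group. Divided by library totals, the ratio of mimic to control reads was 1.15 on the 9 genes and 1.01 for miR-1a-3p on them. Pooled with miR-206-3p and without that division, the miR-1a-3p ratio was 1.07 (1.01 to 1.14). Without Myh1, an alternative added after seeing the data, the ratio on the remaining genes was 0.949, below 1. The share of all reads on the 9 genes was 7.25% (control) and 8.35% (mimic) in lines of at least 1 read, 8.88% and 10.05% in lines of at least 3 reads, and 8.48% and 9.72% without the mitochondrial chromosome and Rn18s-rs5. The miR-133a-3p share was 46.95% and 49.2% in lines of at least 1 read, 49.2% and 51.7% in lines of at least 3 reads, 59.1% and 60.8% pooled with miR-133b-3p, and 4.24% and 3.69% counted by lines. Of all 2728 genes 361 were called higher and 483 lower. At a fold of 2 these were 137 and 190, with 2 of the 9 genes called, and on reads as deposited 515 and 344, with 4, where Myl1 replaced Myh8. With at least 100 reads, 24 and 27 of 514 genes were called, with 3 of the 8 myosins tested, Myl2 having too few reads. With a minimum of 300 reads, 17 of 33 most alike genes were kept. Without its main site, also an added alternative, Myh8 had a ratio of 0.918, Myl1 1.99 and Myl2 4.07. In lines of at least 3 reads the ratio was 0.177 for Myh3 and 6.13 for Myl2. The cause of these shifts was not tested, apart from fewer genes or lines being counted. Depth limits Myl2, Myh7 and Myh3 most.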
